A study of Mus musculus with 50 samples.

Results

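The integrated stress response genes described here are Atf4, Atf5, Ddit3, Ddit4, Asns, Trib3, Chac1, Sesn2, Gdf15 and Fgf21. They were taken as the rows of the gene count files that carry these symbols, and all 10 were found among 24984 genes. RNA-seq had been done on the kidney and liver of untreated female C57BL/6 mice, 4 libraries in each of 4 groups, in which young mice were 2.5 months and old mice 23 to 25 months of age. Further groups came from C57BL/6 mice of 20 to 21 months that were given DMSO, a solvent, or an agent called 3C in the labels, with 4 kidney and 4 liver libraries for each. Skin fibroblasts that the labels mark P9 had been given DMSO or 3C as well, with 3 libraries each. What 3C is, and whether P9 is a passage or an age, was not given in the sources used here. ATAC-seq, which marks open chromatin, covered young and old kidney and liver with 3 libraries per group. Whole tissue was sequenced, so in these samples fewer cells of a type and less RNA per cell cannot be told apart.

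The integrated stress response is the way a cell slows its protein synthesis under stress. Kinases that sense unfolded proteins, missing amino acids, viral RNA or missing heme phosphorylate the initiation factor eIF2, most mRNAs are then translated less, and the mRNA of Atf4 is translated more. ATF4 protein is a transcription factor of the basic leucine zipper type that raises genes for amino acid supply and, under lasting stress, for growth arrest and cell death. Since ATF4 is set mainly at translation, its mRNA level is no measure of its activity, and the RNA of its targets is the usual readout in RNA-seq. GDF15 and FGF21 are stress hormones of this programme that act through the blood, and the liver is the main source of circulating FGF21.

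ATF4 acts with C/EBP partners on a composite DNA element, the C/EBP-ATF response element, whose core was searched here as TGATGNAA on both strands in the 250 bases before each RefSeq start site. Of 32851 RefSeq windows in the mouse build GRCm38.p6, 3.45% held a match. The core was found before the starts of Asns, Chac1 and Fgf21, and in none of the windows of the other 7 genes. These 3 stretches are shown because they are the sites at which the element could be read directly beside the RNA values, each 5′ to 3′ on the strand of its gene and with the core in capitals. The Chac1 and Fgf21 matches lie on the other strand, so they read TTGCATCA.
Asns, chr6:7693214-7693243, minus strand: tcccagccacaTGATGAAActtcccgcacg
Chac1, chr2:119350992-119351116, plus strand: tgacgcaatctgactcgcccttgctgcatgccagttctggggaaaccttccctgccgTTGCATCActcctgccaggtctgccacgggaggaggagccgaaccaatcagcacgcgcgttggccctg
Fgf21, chr7:45615562-45615689, minus strand: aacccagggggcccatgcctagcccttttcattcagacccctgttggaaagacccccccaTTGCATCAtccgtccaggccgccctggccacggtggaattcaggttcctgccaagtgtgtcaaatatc
With positions counted from the RefSeq start, the base before it being -1, the Asns core began at -23, and the GENCODE vM21 annotation, which starts Asns further upstream, places it within the first exon as 5′ UTR, so only 30 bases of it are given. In Chac1 the core began at -193 and in Fgf21 at -139. The cyclic AMP response element TGACGTCA, another site of basic leucine zipper factors, was in 1.55% of all windows and in 0 of the 10 genes' windows. A match is a description of letters and no evidence of binding, and windows without one say nothing on the factor.

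Levels are given as CPM, counts scaled to library size, with TMM factors over all 38 RNA libraries, and as CPM per kb of exon wherever genes are compared with each other. The totals were 14.2 to 43.7 M counts per library. Reads with several alignments or with none were tallied in the libraries of the age groups, whereas those tallies were 0 in every DMSO and 3C library. The 2 sets had thus not been processed alike before counting, and no test was made between them. The labelled tissues held their markers, with a summed level of 10 kidney genes of at least 13222.6 CPM in every kidney library and at most 34.2 CPM in every liver library. The 34.2 CPM came from liver with 3C, where the median was 4.69 CPM. Liver with DMSO reached 3.55 CPM, young liver 0.791 CPM and old liver 0.441 CPM. Old kidney replicate 2 stood apart, with 3482.1 CPM summed over 10 liver genes against 356.0 to 521.8 CPM in the other old kidney libraries and 313.0 to 475.6 CPM in young kidney, so the members and lists of old kidney were also tested without it.

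Fibroblasts had the highest mean level of 6 of the 10 genes, and of Atf5 too without TMM factors. Atf4 mRNA was 254.9, 267.8 and 260.4 CPM in DMSO fibroblasts. It ranged from 164.5 to 226.3 CPM in liver with DMSO or 3C, from 111.6 to 143.7 CPM in young and old liver, and from 69.4 to 133.9 CPM over all kidney libraries. The steps between fibroblasts with 3C and liver with DMSO, between liver with 3C and old liver, and between kidney with DMSO and old kidney were those at which neighbouring groups did not overlap. The place of liver against kidney rests on the TMM factors, and by library totals Atf4 was 66.3 to 83.6 CPM in young and old liver and 80.4 to 121.7 CPM in young and old kidney.

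**Figure D1:**
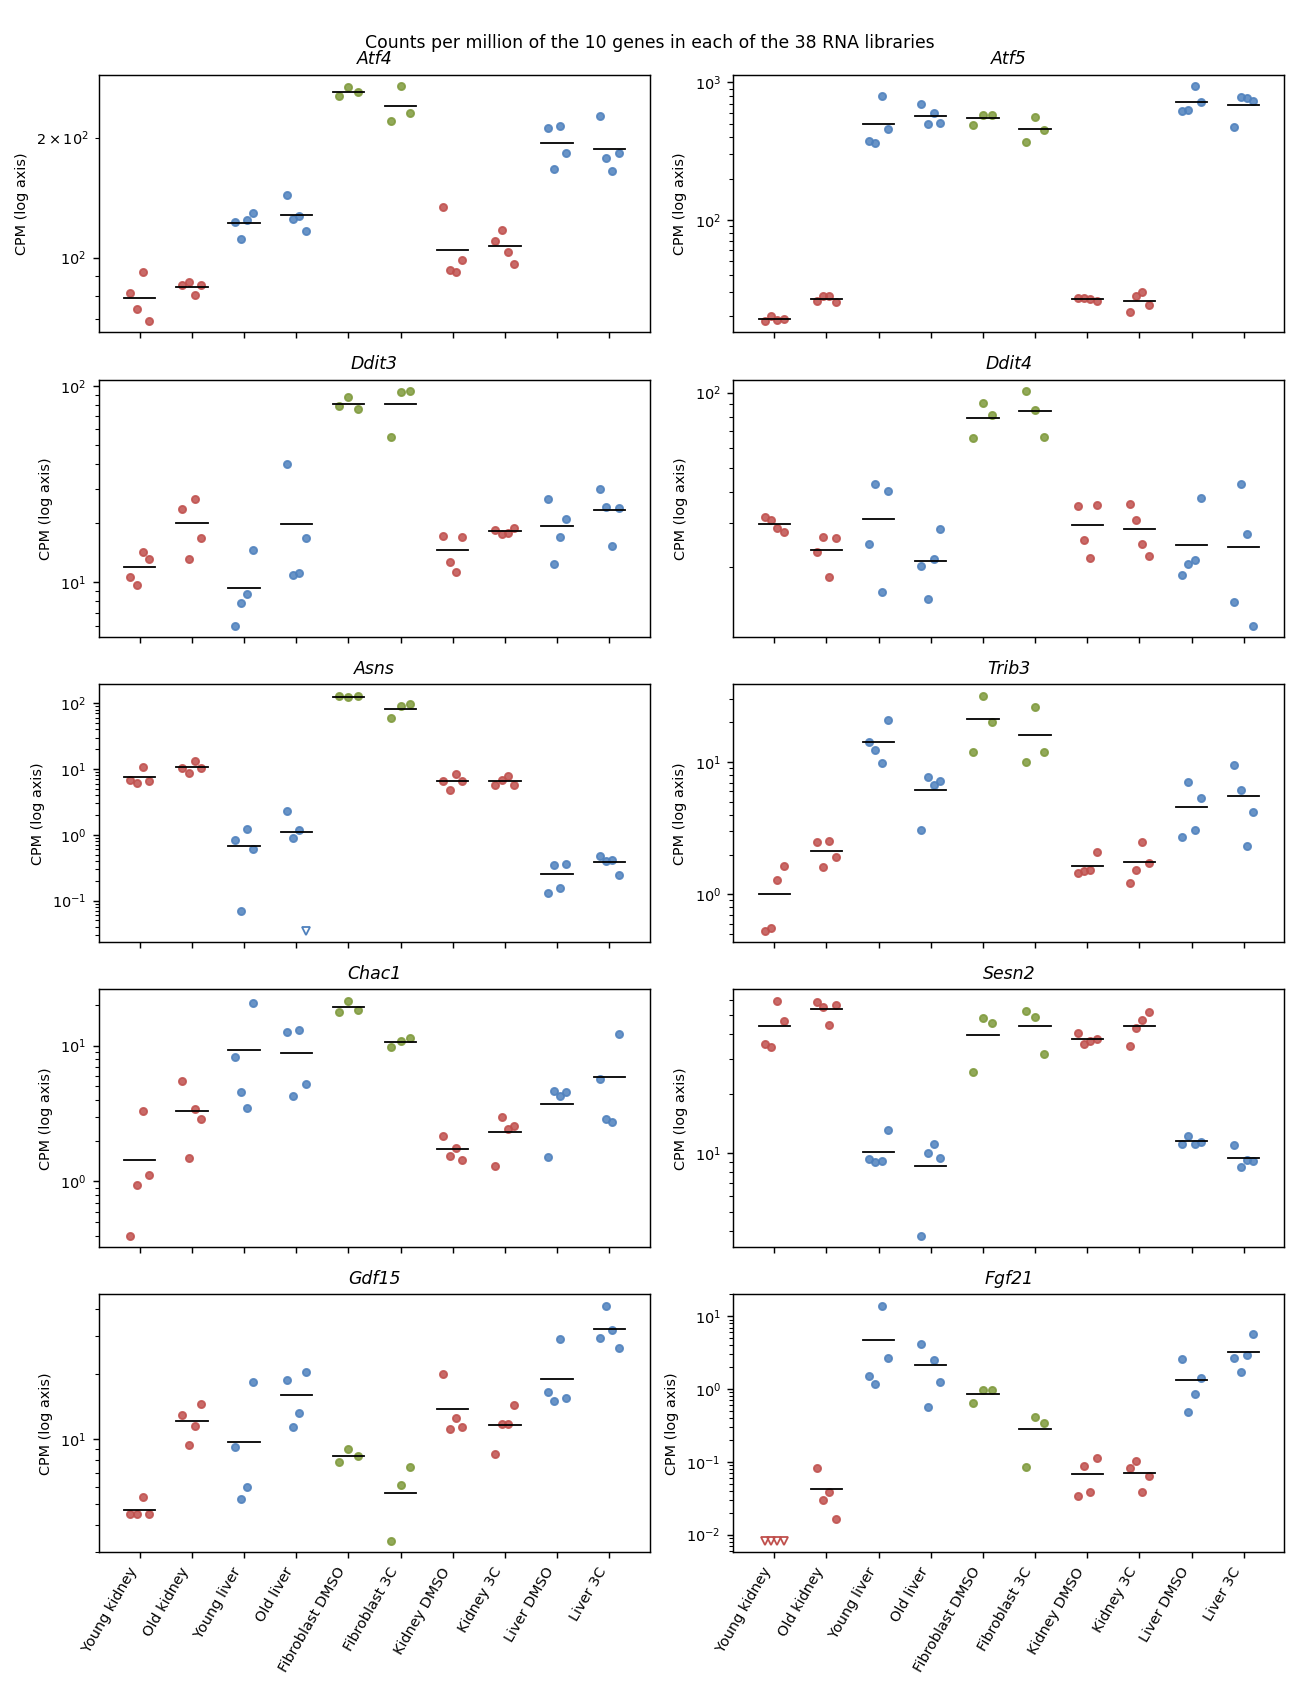
Each panel plots one gene in CPM on a log axis for the 10 RNA groups. Points are libraries, black lines are group means, red is kidney, blue liver and green fibroblasts, and open triangles at the bottom stand for libraries with 0 counts. Asns falls from 60.2 to 127.9 CPM in fibroblasts to at most 2.29 CPM in liver, and Atf5 is at 18.5 to 29.9 CPM in kidney against at least 363.7 CPM elsewhere.

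The transcription factors did not share an order over the groups. Atf5, a relative of ATF4 that is also controlled at translation and takes part in the mitochondrial stress response, was low in kidney, at 18.5 to 29.9 CPM in 16 libraries, and 363.7 to 937.5 CPM in all liver and fibroblast libraries. Its 6 liver and fibroblast groups overlapped each neighbour in the order. Ddit3, which encodes the CHOP factor linked to cell death under prolonged stress, was 54.8 to 93.9 CPM in fibroblasts and 6.02 to 40.1 CPM in the tissues, and no fibroblast library overlapped a tissue library.

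The genes that restrain growth or the response itself each had an order of their own. Sesn2, a leucine sensor that holds back mTORC1, was 34.5 to 58.9 CPM in kidney and 3.79 to 13 CPM in liver, with no overlap between the tissues. Ddit4, which also inhibits mTORC1, differed little between tissues, with group means from 21.2 to 31.0 CPM in kidney and liver and from 79.4 to 84.2 CPM in fibroblasts. By library totals, however, its mean was 35.8 CPM in young kidney and 17.8 CPM in young liver. Trib3, a pseudokinase that binds ATF4 and dampens it, was 0.532 to 2.52 CPM in kidney, 2.33 to 20.8 CPM in liver and 9.92 to 31.4 CPM in fibroblasts.

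Of the amino acid and glutathione genes, Asns varied over the wider range. Asns, the enzyme that makes asparagine, had a mean of 125.7 CPM in DMSO fibroblasts (SD 2.97, n = 3), 7.67 CPM in young kidney (SD 2.2, n = 4) and 0.682 CPM in young liver (SD 0.478, n = 4). One old liver library, replicate 4, had 0 Asns counts, and over all liver libraries the highest value was 2.29 CPM, from 26 counts. Chac1, which degrades glutathione, was 0.399 to 5.51 CPM in kidney, 1.52 to 20.5 CPM in liver and 9.79 to 21.2 CPM in fibroblasts.

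Of the secreted factors, Gdf15, a hormone that lowers appetite through a hindbrain receptor, was present in every group with means from 4.72 CPM in young kidney to 32.4 CPM in liver with 3C. Fgf21, a hormone of the fasting and stressed liver, was measured at 0.492 to 13.8 CPM in liver. Fibroblasts had 2 to 30 Fgf21 counts per library, kidneys with DMSO or 3C 1 to 3, and old kidneys 1 or 2. Young kidney gave 0 Fgf21 counts in all 4 libraries, which allows up to 3 counts over the group.

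Per kb of exon, Atf5 was the most abundant of the 10 genes in young liver at a mean level of 250.5 CPM per kb, ahead of Atf4 at 51.7 CPM per kb. In young kidney Atf4 led with 33.6 CPM per kb, ahead of Ddit4 with 16.9, Sesn2 with 12.6 and Atf5 with 9.53 CPM per kb. Asns stood at 45.9 CPM per kb in DMSO fibroblasts, close to Ddit3 at 47.4 and Ddit4 at 45.2 CPM per kb. Reads were counted without regard to strand, and 10.1% of the exon length of Ddit3 is shared with Mars on the opposite strand or with a second annotated entry of the same symbol, and 4.1% of Atf5 with Il4i1 and Nup62. Exons of the other 8 genes overlap no other gene.

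The most alike genes were sought by Pearson's r of the mean log2 CPM over the 10 RNA groups among 13390 genes, as a description. They were Rbfox2 (r = 0.988), Itga5 (0.985) and Kank2 (0.984) for Atf4, and Ric8a (0.984), Hs1bp3 (0.983) and Prr13 (0.98) for Ddit3. For Trib3 they were Nectin2 (0.99), Dpy19l1 (0.973) and Ugcg (0.972), and for Asns Ctps (0.997), Atp6ap1 (0.996) and Pkm (0.996). All 10 points share the contrast between fibroblasts, liver and kidney, and within a tissue the treated and untreated groups.

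The young tissues were compared first, to show where the genes stood before ageing. Young kidney had more RNA of Asns and Sesn2 than young liver, and less of Atf5, Trib3, Chac1 and Fgf21. Gdf15 was lower in kidney as well, but not past 2-fold with the replicate number as a block, and not lower without TMM factors. A gene was called when edgeR's quasi-likelihood test gave a Benjamini-Hochberg adjusted p under 0.05 and the fold was above 2 or below 0.5. By this rule 7 of the 10 genes were called, 2 higher and 5 lower in kidney. Of the 14057 genes tested 42.6% were called, 25.7% higher and 16.9% lower, or 3618 and 2369 genes. Under the block 2 members were called higher and 4 lower, beside 3674 and 2330 of all genes tested. Without TMM factors they were 4 and 4, beside 7802 and 1240 of the same 14057 genes. With the dependence on length and GC content removed, 3128 genes were called higher and 3305 lower. The groups did not overlap for 7 of the 10 genes, against 59.5% of genes in all, so most genes differ between these tissues.

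Sesn2 was 35.7, 34.5, 58.9 and 46.8 CPM in young kidney and 9.25, 9.01, 9.04 and 13 CPM in young liver. All kidney values were above all liver values, and the difference was 2.11 on the log2 scale (SE 0.21, adjusted p = 2.83e-06, edgeR). Asns was 6.91, 6.22, 10.9 and 6.61 CPM in young kidney and 0.827, 0.0699, 1.22 and 0.615 CPM in young liver. Its log2 difference was 3.50 (SE 0.48, adjusted p = 4.14e-05, edgeR), and the liver values rest on 1 to 14 counts per library.

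Atf5 went the other way. Its levels were 18.5, 19.9, 18.6 and 19.0 CPM in young kidney and 372.4, 363.7, 799.5 and 461.7 CPM in young liver, a log2 difference of -4.73 (SE 0.26, adjusted p = 1.28e-08, edgeR). Liver replicate 3 was the highest. Trib3 was 0.532, 0.562, 1.29 and 1.64 CPM in young kidney and 14.1, 12.4, 9.82 and 20.8 CPM in young liver, a log2 difference of -3.86 (SE 0.39, adjusted p = 3.26e-06, edgeR), again without overlap.

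Chac1 was 0.399, 0.937, 3.28 and 1.11 CPM in young kidney and 8.27, 4.54, 3.48 and 20.5 CPM in young liver. Kidney replicate 3 came close to liver replicate 3, and the log2 difference was -2.74 (SE 0.66, adjusted p = 0.00315, edgeR). Fgf21 was 1.5, 1.19, 13.8 and 2.64 CPM in young liver, and with the 4 young kidneys at 0 counts it was at least 138.9-fold higher in liver, against a floor of 3 counts over the kidney group. Without liver replicate 3, the highest, the bound was 51.5-fold.

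Gdf15 was 4.52, 4.5, 5.38 and 4.49 CPM in young kidney and 9.25, 5.31, 6.0 and 18.5 CPM in young liver, and the groups overlapped at liver replicate 2. Its log2 difference of -1.06 (SE 0.36, adjusted p = 0.0205, edgeR) was past both thresholds. With the replicate number as a block the difference was -0.90 (adjusted p = 0.0216), and without liver replicate 4 it was -0.56 (adjusted p = 0.0649), so the call was lost in both. Atf4 was lower in young kidney by less than 2-fold, at 81.7, 74.2, 92.0 and 69.4 CPM against 122.9, 111.6, 123.9 and 129.4 CPM in liver, a log2 difference of -0.64 (SE 0.12, adjusted p = 0.000727, edgeR). Ddit3 was 10.6, 9.67, 14.2 and 13.2 CPM in young kidney and 6.02, 7.89, 8.69 and 14.7 CPM in young liver, with overlap and a log2 difference of 0.34 (SE 0.27, adjusted p = 0.287, edgeR), and Ddit4 had a difference of -0.08 (95% interval -0.65 to 0.49). The TMM factors were 1.158 to 1.233 in young kidney and 0.512 to 0.628 in young liver. Without them the median over all genes moved from 0.08 to 1.16 on the log2 scale, and the order of the tissues turned for Atf4 (0.45), Ddit4 (1.0) and Gdf15 (0.06). Ddit3 was then 1.45 (adjusted p = 0.000166, edgeR), and it and Ddit4 (adjusted p = 0.00525) were called higher in kidney.

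**Figure D2:**
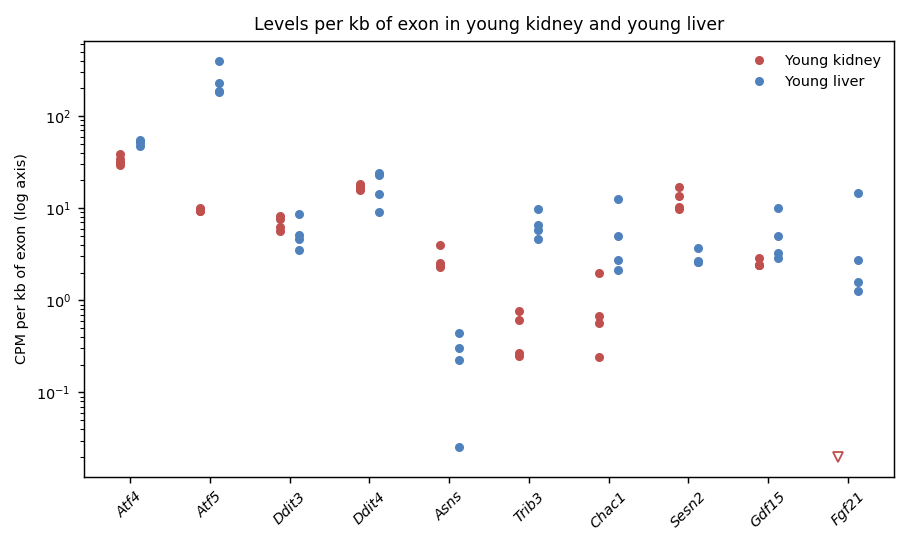
CPM per kb of exon on a log axis for the 10 genes, in the 4 young kidney libraries (red) and the 4 young liver libraries (blue), with an open triangle for Fgf21 in kidney, where all counts were 0. Asns and Sesn2 lie higher in kidney, and Atf5, Trib3, Chac1 and Fgf21 lie lower, without overlap.

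Other lists of the response were set beside the shares over all genes of 25.7% called higher and 16.9% lower in young kidney. Of 21 ATF4 targets of amino acid and one-carbon metabolism, 18 were tested, with 8 called higher and 7 lower in kidney. Phgdh and Psat1, which make serine, were higher by 7.11 (adjusted p = 1.58e-09) and 6.15 (adjusted p = 5.61e-09) on the log2 scale in edgeR, and the neutral amino acid carrier Slc1a5 by 4.0 (adjusted p = 7.19e-10). Cbs and Cth, which turn homocysteine into cysteine, were lower in kidney, with log2 differences of -3.58 and -2.17 (adjusted p = 3.44e-09 and 9.16e-07, edgeR). Of 12 tRNA synthetases, 5 were called lower in kidney and 0 higher, and Tars was the first of these by p with -3.05 (adjusted p = 1.17e-09, edgeR). Of 18 endoplasmic reticulum chaperones of the ATF6 and XBP1 branches 12 were called lower and 0 higher, with a median of -1.28. Of 15 genes for the eIF2 kinases, eIF2, eIF2B and its phosphatase, 0 passed both thresholds, and 1 was higher and 8 lower by the adjusted p alone, which 65.4% of all genes passed, 35.1% higher and 30.2% lower. The higher and lower counts rest on the TMM factors. Without them 7802 of all 14057 genes were called higher and 1240 lower, with a median of 1.16. Beside this, 11 of the 18 amino acid and one-carbon targets tested were called higher and 3 lower. The 12 tRNA synthetases had 3 higher and 1 lower, the 18 chaperones 0 and 1, and the 15 eIF2 genes 4 and 0.

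The comparison of old with young kidney asked which of these genes move with age. Gdf15, at chr8:70629393-70632456 on the minus strand of mm10 (GENCODE vM21), was the one member that was called. Its levels were 4.52, 4.5, 5.38 and 4.49 CPM in young and 13, 9.4, 11.5 and 14.5 CPM in old kidney. All 4 old libraries were above all 4 young ones, and the log2 fold change was 1.42 (SE 0.17, adjusted p = 0.00136, edgeR), a fold of 2.68. That is 1 of 9 genes tested, where 6.08% of the 14495 genes tested were called and 5.68% were called higher. Fgf21 was not tested, because its counts in kidney were too low.

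The factors Atf5 and Ddit3 passed the adjusted p but stayed below 2-fold. Atf5 was 18.5, 19.9, 18.6 and 19.0 CPM in young and 25.7, 28.1, 28.1 and 25.2 CPM in old kidney. The groups were separate, with a log2 fold change of 0.55 (SE 0.10, adjusted p = 0.00716, edgeR). Ddit3 was 10.6, 9.67, 14.2 and 13.2 CPM in young and 23.7, 13.2, 26.5 and 16.9 CPM in old kidney, and the log2 fold change was 0.80 (SE 0.22, adjusted p = 0.0421, edgeR), and old replicate 2 lay inside the young range. Ddit3 missed the adjusted p when any 1 of 6 of the 8 libraries was left out (0.0684 to 0.133), these being young replicates 1, 2 and 3 and old replicates 1, 3 and 4. By the adjusted p alone 3 of 9 genes were higher and 0 lower, against 8.15% and 3.36% of all genes tested.

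The other members did not pass the test in old kidney. Trib3 was 0.532, 0.562, 1.29 and 1.64 CPM in young and 2.47, 1.62, 2.52 and 1.91 CPM in old kidney, with 3 of 4 old libraries above every young one and a log2 fold change of 1.14 (SE 0.40, adjusted p = 0.0962, edgeR). DESeq2 called Trib3 with an adjusted p of 0.0392, and edgeR called it without young replicate 4 (1.5, adjusted p = 0.04). Chac1 was 0.399, 0.937, 3.28 and 1.11 CPM in young and 5.51, 1.5, 3.41 and 2.88 CPM in old kidney, and its log2 fold change of 1.28 (SE 0.58, adjusted p = 0.171, edgeR) came to 2.05 (adjusted p = 0.0497) without young replicate 3.

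Asns was 6.91, 6.22, 10.9 and 6.61 CPM in young and 10.4, 8.78, 13.3 and 10.5 CPM in old kidney, and the log2 fold change was 0.55 (SE 0.21, adjusted p = 0.12, edgeR). Ddit4 had values of 31.7, 30.8, 28.7 and 27.7 CPM in young and 23.0, 26.4, 18.2 and 26.2 CPM in old kidney. They did not overlap, and with a log2 fold change of -0.27 (SE 0.15) the adjusted p was 0.237 in edgeR. Atf4 and Sesn2 had 95% intervals of the log2 fold change from -0.09 to 0.40 and from -0.07 to 0.76. The kidney groups were separate for 3 of the 9 genes tested, Atf5, Ddit4 and Gdf15, against 19.2% of all genes with at least 40 counts over the 8 libraries. Without old replicate 2, Ddit3 and Trib3 were separate as well, which made 5 of 9, against 32% of all genes.

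Without old kidney replicate 2, the library with liver transcripts, Gdf15 was 1.52 (adjusted p = 0.0012, edgeR), Ddit3 0.94 (adjusted p = 0.00959) and Atf5 0.51 (adjusted p = 0.0118) on the log2 scale, and Gdf15 again was the one gene called. The other members had an adjusted p of at least 0.0634, with Asns at 0.62, Trib3 at 1.24, Chac1 at 1.52 and Ddit4 at -0.35. With the dependence of each library on exon length and GC content removed, Gdf15 came to 0.91 (adjusted p = 0.00677), below 2-fold and so no longer called. Atf5 was then 0.07 (adjusted p = 0.749) and Ddit3 0.50 (adjusted p = 0.0592), whereas Ddit4 came to -0.73 (adjusted p = 0.0303) and so was lower by the adjusted p, while the median over all genes moved from 0.02 to -0.11.

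**Figure D3:**
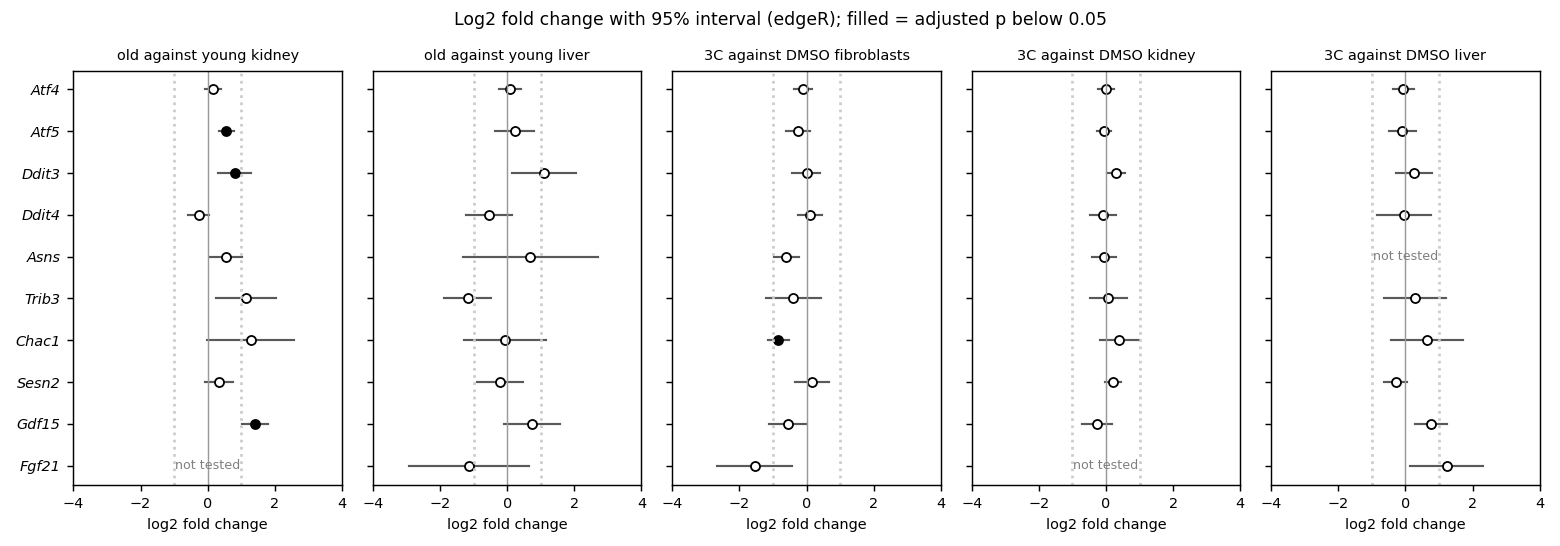
Log2 fold change of each gene (points) with its 95% interval (lines) from edgeR in the 5 comparisons of age and 3C, with dotted lines at 2-fold. Filled points have an adjusted p below 0.05, which are Atf5 (0.55), Ddit3 (0.80) and Gdf15 (1.42) in old kidney and Chac1 (-0.84) in fibroblasts with 3C.

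Upstream of ATF4, 0 of 15 genes for the eIF2 kinases, eIF2, eIF2B and the phosphatase passed the test in old kidney, with 8 above 0 and a median of 0.02, equal to that of all genes. Of 19 tested targets of amino acid and one-carbon metabolism, Pycr1, which makes proline (2.77, adjusted p = 0.00434, edgeR), and Slc7a5, the large neutral amino acid carrier (1.38, adjusted p = 0.0192), were called higher and 0 lower. Among 14 other stress targets, Atf3, a stress-induced repressor (1.99, adjusted p = 0.00417, edgeR), and Nupr1 (1.62, adjusted p = 0.00483) were called higher, and Vldlr was lower by the adjusted p alone (-0.78, adjusted p = 0.00926). Of 12 tRNA synthetases 0 passed the test, with a median of 0.18, and of 18 endoplasmic reticulum chaperones Derl3 was called higher (2.42, adjusted p = 0.0289, edgeR). These counts of 2 of 19, 2 of 14, 0 of 12 and 1 of 18 stand beside the 5.68% of all genes called higher, and the share of the chaperones is near it.

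Gdf15, Sesn2, Atf3 and Ddit4 are also known to respond to p53, glucocorticoids or inflammation, so those lists stand beside them. Of 13 p53 targets 3 were called higher in old kidney, Cdkn1a, the cell cycle inhibitor p21 (1.12, adjusted p = 0.00126, edgeR), Phlda3 (1.18, adjusted p = 0.00311) and Eda2r (2.22, adjusted p = 0.0341), and the median was 0.44. Of 10 tested glucocorticoid receptor targets, Mt2 (1.90, adjusted p = 0.00177, edgeR) and Mt1 (1.0, adjusted p = 0.0147) were called higher, Errfi1 was lower by the adjusted p alone (-0.72, adjusted p = 0.00275), and the median was 0.07 with 6 of 10 above 0. Immune markers moved with age as well. In old kidney 9 of 10 macrophage markers, 5 of 6 T cell markers and 6 of 6 B and plasma cell markers tested were called higher, and the summed macrophage level was 128.2 to 154.3 CPM in young and 601.2 to 1174.9 CPM in old kidney. Of 10 fibroblast markers 9 were above 0, and Thy1 (1.92, adjusted p = 0.00126, edgeR) and Lum (1.57, adjusted p = 0.00367) were called higher, with a summed level of 343.5 to 407.9 CPM in young and 309.6 to 658.1 CPM in old kidney. The 8 liver markers tested had a median of 2.25 with 0 called, and a median of 0.73 without old replicate 2. Without that library the genes of the lists of the response and of the p53 targets named above as called in old kidney were again called, as were Mt1, Mt2, Thy1, Lum and the 9 macrophage, 5 T cell and 6 B and plasma cell markers. Klf9, of the glucocorticoid receptor targets, was then called lower (-1.37, adjusted p = 0.0085, edgeR). By the adjusted p alone 11.5% of all 14519 genes tested without that library were higher and 12.2% lower. Beside this stood 4 higher and 0 lower of 12 tRNA synthetases, 1 and 2 of 15 eIF2 genes, 3 and 0 of 19 amino acid and one-carbon targets, 3 and 3 of 14 other stress targets and 4 and 1 of 18 endoplasmic reticulum chaperones. The part of these cells in the Gdf15, Atf5 and Ddit3 values was not tested.

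In old against young liver 0 of 10 members were called, where 2.13% of the 12537 genes tested were, and 0 passed the adjusted p alone, against 2.46%. The unadjusted p was under 0.05 for 2 members, Trib3 and Ddit3, and DESeq2 called 1, Trib3. Trib3 was 14.1, 12.4, 9.82 and 20.8 CPM in young and 3.09, 7.68, 6.75 and 7.25 CPM in old liver. All old libraries were below all young ones, with a log2 fold change of -1.18 (SE 0.32, adjusted p = 0.0901 in edgeR and 0.011 in DESeq2). It was the one member whose liver groups did not overlap, and 10% of genes had no overlap.

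Ddit3 was 6.02, 7.89, 8.69 and 14.7 CPM in young and 40.1, 10.9, 11.1 and 16.9 CPM in old liver. Old replicate 1 carried much of the difference of 1.10 (SE 0.44, adjusted p = 0.262, edgeR), which was 0.49 (SE 0.31) without it. Old replicate 1 also had the lowest Trib3 and Sesn2 of its group, at 3.09 and 3.79 CPM. Gdf15 was 9.25, 5.31, 6.0 and 18.5 CPM in young and 18.8, 11.4, 13.3 and 20.6 CPM in old liver, and the log2 fold change was 0.73 (SE 0.38, adjusted p = 0.426, edgeR) with overlap. Fgf21 was 1.5, 1.19, 13.8 and 2.64 CPM in young and 4.23, 0.56, 2.54 and 1.25 CPM in old liver, and its interval ran from -2.93 to 0.64.

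The remaining members of old liver had 95% intervals of -0.23 to 0.41 for Atf4, -0.36 to 0.81 for Atf5, -1.23 to 0.15 for Ddit4, -1.32 to 2.71 for Asns, -1.29 to 1.17 for Chac1 and -0.90 to 0.48 for Sesn2. A change of 2-fold therefore lay inside the interval for Asns, Chac1 and Ddit4. Of the lists of the response, 0 genes passed the test among 15 eIF2 genes, 16 tested amino acid and one-carbon targets, 12 tRNA synthetases, 13 other stress targets and 18 endoplasmic reticulum chaperones. The chaperones had 17 of 18 values above 0 and a median of 0.61, and 12 PPARalpha targets, the receptor that drives Fgf21 in fasting, had 0 above 0 and a median of -0.77. Mt2 (5.62, adjusted p = 0.0173, edgeR) and Mt1 (4.24, adjusted p = 0.0228) were called higher among 11 glucocorticoid receptor targets, as were 1.69% of all genes, and 2 of 10 macrophage and 4 of 5 B and plasma cell markers tested were called higher.

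A joint fit of both tissues tested whether the age difference was the same in liver and kidney, with a gene called by the adjusted p alone. Trib3, at chr2:152337422-152344032 on the minus strand, was the one member of 10 that differed, with a difference of -2.29 on the log2 scale (SE 0.52, adjusted p = 0.0354, edgeR), where 1.72% of the 15036 genes tested did, 0.871% with a higher and 0.845% with a lower value in liver, or 131 and 127 genes. Without TMM factors these were 66 and 106 genes. The separate values were 1.14 in kidney and -1.18 in liver. Trib3 was still past the threshold without old kidney replicate 2 (-2.44, adjusted p = 0.0391). It missed it when any 1 of 10 other libraries of the 16 was left out, with adjusted p between 0.0515 and 0.0863, and without TMM factors (-2.23, adjusted p = 0.0622). Gdf15 had a difference of -0.64 (95% interval -1.59 to 0.31), and was not shown to differ between the tissues.

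For 3C in fibroblasts 0 of 10 members passed both thresholds, where 1.87% of the 13449 genes tested did. The unadjusted p in edgeR was under 0.05 for 4 of them, all lower, and DESeq2 called 0. Chac1 passed the adjusted p alone, as did 4.22% of all genes and 1.78% in the lower direction. It was 17.6, 21.2 and 18.4 CPM with DMSO and 9.79, 10.8 and 11.3 CPM with 3C. All 3 treated libraries were below all controls, and the log2 fold change was -0.84 (SE 0.14, adjusted p = 0.00855, edgeR). It lay between -0.89 and -0.76 over all alternatives, each with an adjusted p of at most 0.0442.

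Asns was 126.8, 122.3 and 127.9 CPM with DMSO and 60.2, 89.8 and 96.1 CPM with 3C, a log2 fold change of -0.61 (SE 0.17, adjusted p = 0.0689, edgeR), without overlap. Its adjusted p was 0.0138 in DESeq2, and in edgeR 0.0207 without the filter and 0.0384 with the length and GC trend removed. Over all alternatives the adjusted p of Asns ran from 0.0138 to 0.213, and its fold stayed below 2. Fgf21, at 19, 30 and 20 counts with DMSO and 2, 12 and 7 counts with 3C, had -1.55 (SE 0.51, adjusted p = 0.118, edgeR). Gdf15 was 7.86, 8.97 and 8.39 CPM with DMSO and 3.39, 6.15 and 7.45 CPM with 3C, a log2 fold change of -0.56 (SE 0.25, adjusted p = 0.239, edgeR). In all, 4 of 10 members had separate fibroblast groups, each lower with 3C, where 25.4% of genes were separate. Fibroblast 3C replicate 1 had the lowest value of its group for 8 members and the highest for Ddit4 and Sesn2. Without it Chac1 was -0.78 (adjusted p = 0.0227, edgeR), Asns -0.42 (adjusted p = 0.095) and Fgf21 -1.13 (adjusted p = 0.258).

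Atf4 was 220.4, 269.2 and 231.0 CPM with 3C, inside or below the control range of 254.9 to 267.8 CPM except for replicate 2, and its interval was -0.38 to 0.16. Ddit3 had an interval of -0.42 to 0.41, Ddit4 of -0.27 to 0.45, Sesn2 of -0.35 to 0.68, Atf5 of -0.61 to 0.11 and Trib3 of -1.21 to 0.44.

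Among the lists, Atf3 was called lower in fibroblasts with 3C (-1.64, adjusted p = 0.0231, edgeR), 1 of 14 other stress targets, where 0.632% of all genes were. By the adjusted p alone, 3 of 21 amino acid and one-carbon targets were lower and 1 higher, against 1.78% and 2.43% of all genes. These were Cth (-0.97, adjusted p = 0.021, edgeR), the mitochondrial folate enzymes Mthfd2 (-0.74, adjusted p = 0.00823) and Shmt2 (-0.50, adjusted p = 0.0314), and Slc1a5 (0.69, adjusted p = 0.0114). The eIF2 subunit gene Eif2s1 (-0.52, adjusted p = 0.0431, edgeR) and the eIF2B gene Eif2b3 (-0.57, adjusted p = 0.0298) were lower as well. Of 12 tRNA synthetases 0 passed the test, and all 12 were below 0, with a median of -0.27 against 0.01 over all genes. The 8 tested macrophage markers also were below 0, with 1 called, and their summed level over 10 genes was 225.2 to 289.3 CPM with DMSO and 85.4 to 135.3 CPM with 3C. Its part in the values of the members was not tested.

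In kidney of mice given 3C, 0 of 9 members tested were called, and 0 of all 14974 genes, or 0%, were called by edgeR, with 1786 at an unadjusted p under 0.05. DESeq2 called 8 genes, all lower. Ddit3 was 17.3, 12.7, 11.3 and 17.0 CPM with DMSO and 18.4, 17.6, 17.8 and 19.0 CPM with 3C. All treated kidneys were just above all controls, the log2 fold change was 0.29 (SE 0.12, adjusted p = 0.377, edgeR), and 6.99% of genes had groups that did not overlap. The intervals of the other 8 members all held 0, the narrowest being Atf5, from -0.28 to 0.16, and the widest Chac1, from -0.17 to 0.97. They were -0.23 to 0.25 for Atf4, -0.47 to 0.30 for Ddit4, -0.42 to 0.31 for Asns, -0.49 to 0.61 for Trib3, -0.03 to 0.44 for Sesn2 and -0.71 to 0.17 for Gdf15. A 2-fold change lay outside the interval of all 9 genes.

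In liver with 3C, 0 of 9 members tested were called, and 0 of 13042 genes, or 0%, with 436 at an unadjusted p under 0.05. DESeq2 called 2 genes, both higher, and 0 members here and in kidney with 3C. Gdf15 had the smallest p of the members. It was 16.6, 15.1, 29.1 and 15.6 CPM with DMSO and 29.5, 41.4, 32.1 and 26.6 CPM with 3C. Of the treated livers 3 of 4 were above every control, and control replicate 3 overlapped them, with a log2 fold change of 0.75 (SE 0.22, unadjusted p = 0.00503, adjusted p = 1 in edgeR). Fgf21 was 2.58, 0.492, 0.868 and 1.44 CPM with DMSO and 2.71, 1.74, 2.92 and 5.67 CPM with 3C, a log2 fold change of 1.23 (SE 0.50, unadjusted p = 0.0301, adjusted p = 1 in edgeR), and the counts behind it were 77 and 171 in all.

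Sesn2 was the one member with separate liver groups, at 11.1, 12.2, 11.1 and 11.3 CPM with DMSO and 11, 8.44, 9.17 and 9.08 CPM with 3C, where 2.32% of genes were separate, and its log2 fold change was -0.29 (SE 0.15, adjusted p = 1, edgeR). Asns was not tested in this comparison, with 2 to 7 counts per library. Atf4 had an interval of -0.36 to 0.24 and Atf5 of -0.50 to 0.32. The intervals were wider for Ddit3 (-0.28 to 0.80), Ddit4 (-0.86 to 0.76), Trib3 (-0.65 to 1.2) and Chac1 (-0.44 to 1.70). The 12 PPARalpha targets were all above 0 in both tissues with 3C, with medians of 0.43 in kidney and 0.48 in liver and 0 called.

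The joint fit for 3C in liver against kidney called 0 of 10 members and 0 of 15526 genes, or 0%, with 554 at an unadjusted p under 0.05 in edgeR. DESeq2 called 0 genes. Gdf15 (difference 1.0, SE 0.33, unadjusted p = 0.00701, adjusted p = 1 in edgeR) and Sesn2 (difference -0.51, SE 0.17, unadjusted p = 0.00735, adjusted p = 1) had the smallest p of the members.

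Open chromatin at the starts of the genes was read from the peaks called in each ATAC-seq library. A gene had a promoter peak when a peak overlapped the 1 kb on either side of a RefSeq start. Between 63.4% and 66.4% of 18236 genes had one in a kidney library and 60.1% to 63.1% in a liver library. In kidney 8 of the 10 members had a peak in all 6 libraries, and in liver 7 had one. Those with a peak in all 12 libraries were Atf5, Ddit3, Ddit4, Asns, Trib3, Chac1 and Sesn2, and Atf4 lacked one in 1 young liver library.

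Of the secreted factors, Gdf15 had a promoter peak in 8 and Fgf21 in 4 of the 12 libraries, where each other member had one in 11 or 12. Gdf15 had a peak in 3 of 3 young and 2 of 3 old kidney libraries and in 2 of 3 young and 1 of 3 old liver libraries, with fold enrichments over local background of at most 3.72. Fgf21 had one in 2 of 3 young and 0 of 3 old kidneys and in 1 of 3 livers of each age, at most 3.14-fold. The median over genes with a peak was 5.91 to 7.57 in kidney libraries and 4.53 to 5.40 in liver libraries. The rise of Gdf15 RNA in old kidney thus stood beside peaks of 2.0, 1.92 and 2.95 in young kidney and of 0, 2.25 and 2.33 in old kidney, where 0 stands for no peak.

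Asns and Chac1, whose response elements are printed above, had peaks in every library. For Asns the fold enrichment was 6.72, 10.4 and 6.62 in young and 7.23, 5.75 and 6.06 in old kidney, and 3.82, 4.91 and 4.41 in young and 5.92, 3.03 and 3.09 in old liver. The median over all genes was higher in kidney as well. Chac1 had 3.76, 4.46 and 4.01 in young and 7.16, 5.16 and 6.66 in old kidney, so all 3 old values were above the young ones, and it had 2.19, 2.66 and 2.65 in young and 3.73, 2.86 and 2.15 in old liver. The old kidney values were also all above the young ones for Ddit3 and Sesn2, so this held for 3 of the 8 members with a peak in all kidney libraries, where it held for 17.1% of 10743 such genes. With 3 libraries against 3 no exact permutation test can give a two-sided p below 0.1, and fold enrichments are not scaled between libraries, so these are descriptions. Atf5 had 7.63, 8.47 and 6.95 in young kidney and 3.52, 3.11 and 3.78 in young liver, the reverse of its RNA.

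**Figure D4:**
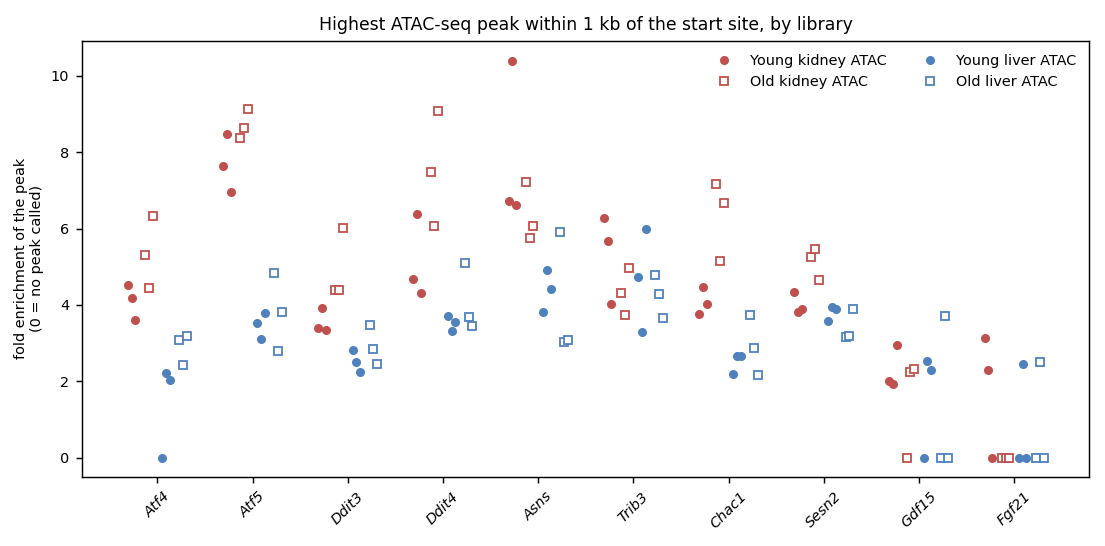
Fold enrichment over local background of the highest ATAC-seq peak within 1 kb of a start site, for the 10 genes in the 12 libraries (filled circles young, open squares old, red kidney, blue liver), with 0 where no peak was called. Gdf15 and Fgf21 do not pass 3.72, while Atf5 reaches 9.14 in old kidney.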

How the data were processed

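RNA-seq of 38 libraries and ATAC-seq of 12 were used, with groups and replicate numbers from the labels. The tools named in the submitters' processing notes are Trimmomatic 0.39, HISAT2 2.2.1, Bowtie2 2.3.5.1, HTSeq 0.12.4 and MACS2, with mm10. The authors deposited whole-number counts of reads per gene, without normalization, for 24984 genes. The 5 tally rows that name no gene were left out. Reads outside genes came to 5.85% to 19.11% and ambiguous reads to 1.72% to 2.81%. The authors also deposited peak lists per library with fold enrichment, a ratio, and −log10 p and −log10 q.

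The members and lists were chosen with earlier results of these data known. The genes named are the 10 members and, from other lists, up to 3 genes per direction with the smallest p. For every comparison a separate quasi-likelihood fit was made with edgeR 4.0.16 in R 4.3.3, after TMM scaling and filterByExpr with min.count 10, and p was adjusted over all genes tested. The steps were tested on simulated counts with the same mean per gene in every group, apart from 200 genes changed 4-fold. These counts held no difference between groups in RNA composition or in the length and GC trend, so they cannot judge those settings. Intervals are 95% and cover the spread between libraries, which may be technical in part since the labels name no animals. Each of 54 replicate pairs differed by more than sampling noise (chi-square of at least 7.78 per degree of freedom). Alternatives were DESeq2 1.42.0, RLE factors, other filters, the adjusted p alone, a replicate block, a correction for exon length and GC content, and leaving out each library. Library totals without TMM factors were added after seeing the data. In young kidney and liver, libraries of the same number deviated together (r = 0.12, 0.219, 0.104 and 0.452), so the block applies to that comparison.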

Additional observations from a re-analysis of the deposited data

Results flagged for a closer look

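Of 74 sets of 4 libraries with at least 10 counts of a member in 1 library, 11 held a library whose gap to its nearest neighbour was wider, relative to the range of its group, than Dixon's 95% critical value, where chance gives about 1 in 20. In young liver they were Fgf21 in replicate 3 (13.8 CPM, others 1.19 to 2.64) and Sesn2 in replicate 4 (13 CPM, others 9.01 to 9.25). Young kidney replicate 3 was high for Asns (10.9 CPM, others 6.22 to 6.91) and Gdf15 (5.38 CPM, others 4.49 to 4.52). Kidney with DMSO had high values of Atf4 (133.9 CPM, others 91.8 to 98.8) and Gdf15 (20.1 CPM, others 11.2 to 12.5) in replicate 1 and of Trib3 (2.09 CPM, others 1.45 to 1.52) in replicate 4. Liver with DMSO had a low Chac1 in replicate 1 (1.52 CPM, others 4.26 to 4.64), a high Gdf15 in replicate 3 (29.1 CPM, others 15.1 to 16.6) and a high Ddit4 in replicate 4 (37.6 CPM, others 18.6 to 21.2). Liver with 3C had a low Atf5 in replicate 1 (471.8 CPM, others 731.1 to 783.0).

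The effect of age on Trib3 differed between liver and kidney by -2.29 on the log2 scale in the interaction test.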

How the results depend on the processing

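The number of members called in old against young kidney was 1, and it was 2 by DESeq2, 0 with the length and GC trend removed, 3 by the adjusted p alone, and 1 to 2 when each library was left out. In old against young liver it was 0, and 1 by DESeq2. In fibroblasts with 3C it was 0, and 1 by the adjusted p alone. For the age effect in liver against kidney 1 member, Trib3, was past the threshold, 0 without TMM factors, and 0 to 1 with a library left out. The counts for 3C in kidney and liver, 0 of 9 each, and for the 3C effect between them were 0 in every alternative run, and the 7 of young kidney against liver were 6 to 8 in the alternatives run, but their split of 2 higher and 5 lower in kidney became 4 and 4 without TMM factors, where Ddit3 (1.45, adjusted p = 0.000166, edgeR) and Ddit4 were called higher and Gdf15 was not called. By mean CPM 7 members were higher in young liver than in young kidney with TMM factors and 4 without, and 7 members had a promoter peak in all 12 ATAC-seq libraries, 4 at a −log10 q of at least 5 and 4 with a summit within 250 bases of the start. Counts over all genes moved by over 1.5 times too. In old liver 212 genes were called higher and 55 lower, 483 and 112 by DESeq2 and 91 and 48 with the replicate block, and the higher count ran from 48 without young replicate 3 to 365 without old replicate 1. The age effect between tissues was called for 131 and 127 genes, 335 and 404 by DESeq2, 63 and 75 with the block. In old kidney without old replicate 2 the lower count went from 59 to 337, and in fibroblasts the counts of 166 and 85 went to 78 and 40 without DMSO replicate 3. The cause of these changes was not tested.

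Some log2 differences changed sign, and except for Gdf15 between young tissues none of these members had been called. With the length and GC trend removed these were Atf4 with age in kidney (-0.24) and in liver (-0.06), Atf5 with 3C in kidney (0.03) and liver (0.04), and the age effect between tissues for Atf4 (0.18) and Ddit4 (0.07). Without TMM factors they were Atf4 (0.45), Ddit4 (1.0) and Gdf15 (0.06) between young tissues, Chac1 with age in liver (0.02) and Atf4 with 3C in kidney (-0.02). With the replicate block they were Chac1 with age in liver (0.13) and Ddit4 between young tissues (0.01). The block also took Gdf15 between young tissues to -0.90, below 2-fold, and changed no other call of a member. In the age and 3C comparisons within a tissue or cell type, libraries of a number did not deviate together in each pair. There they share only a number. In the joint fits they did between young kidney and young liver (r = 0.08, 0.182, 0.08 and 0.369). Kidney and liver with 3C also did (r = 0.128, 0.194, 0.085 and 0.096). With DMSO r was 0.091, 0.112, 0.017 and 0.004, and in old mice 0.242, 0.218, -0.266 and -0.033. The joint tests above have no block. With the block, 1 member was past the threshold for age and 0 for 3C.

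Leaving out each library in turn gave ranges across 0 for the following, of which none was called. With age in liver Chac1 ran from -0.33 to 0.74, Sesn2 from -0.37 to 0.03 and Fgf21 from -1.70 to 0.27. With 3C in fibroblasts Ddit4 ran from -0.06 to 0.23, Trib3 from -0.93 to 0.01 and Sesn2 from -0.07 to 0.35. With 3C in kidney Atf4 ran from -0.04 to 0.14, Atf5 from -0.14 to 0.03, Ddit4 from -0.20 to 0.02, Asns from -0.17 to 0.07 and Trib3 from -0.15 to 0.20. With 3C in liver Atf5 ran from -0.16 to 0.05, Ddit4 from -0.48 to 0.24 and Trib3 from -0.13 to 0.58. Between young tissues Ddit4 ran from -0.30 to 0.11. The age effect between tissues ran from -0.10 to 0.04 for Atf4, -0.41 to 0.03 for Atf5, -0.27 to 0.64 for Ddit3 and -0.45 to 0.61 for Asns. The 3C effect between tissues ran from -0.14 to 0.12 for Atf5, -0.19 to 0.16 for Ddit3, -0.40 to 0.33 for Ddit4, -0.17 to 0.52 for Trib3 and -0.40 to 0.46 for Chac1. Counts were low for Fgf21 in kidney, with at most 3 per library, and for Asns in liver, with 0 to 26.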

Other observations

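Mitochondrial chaperones and proteases, which answer mitochondrial protein stress and are targets of ATF5 in that response, were measured in all comparisons of age and 3C. In old kidney 1 of 9 was above 0 with a median log2 fold change of -0.23, and Hspd1, the chaperonin HSP60, was lower by the adjusted p alone (-0.37, adjusted p = 0.0367, edgeR). Without old kidney replicate 2, which held liver transcripts, 3 of 9 were above 0 with a median of -0.24, and Hspd1 was -0.36 (adjusted p = 0.0441). In old liver 4 of 9 were above 0 with a median of -0.13. In fibroblasts with 3C 0 of 9 were above 0 (median -0.24), in kidney with 3C 9 of 9 (median 0.10) and in liver with 3C 5 of 9 (median 0.08), with 0 past the threshold in each.

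Immune markers in tissues with 3C lay mostly below those with DMSO, with 0 called. In kidney 0 of 10 macrophage, 0 of 6 T cell and 0 of 6 B and plasma cell markers were above 0, with medians of -0.54, -0.59 and -1.03, and 0 of 10 fibroblast markers were, with a median of -0.72. In liver 1 of 10 macrophage, 0 of 6 T cell and 0 of 6 B and plasma cell markers were above 0, with medians of -0.39, -0.91 and -0.45.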
